A study of Mus musculus with 46 samples.

Results

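Cadherins and synaptic adhesion proteins were followed in hypothalamic AgRP and POMC neurons of fed, fasted and leptin-treated mice. The genes were taken by symbol from the RNA count table: the classical and other numbered cadherins (Cdh), all protocadherins (Pcdh), Amigo1 to Amigo3, and the Lrrtm, neuroligin (Nlgn) and neurexin (Nrxn) genes. This gave 74 genes of the 31854 in the table. Of the 74, 71 matched a single gene in the GENCODE vM21 annotation of GRCm38, and 27 of those lay on chromosome 18, where the clustered protocadherins sit.

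Cadherins are calcium-dependent adhesion proteins that bind like molecules on the neighbouring cell and hold junctions and synapses together, with the catenins linking them to actin inside the cell. Protocadherins are their largest relatives in the brain. The clustered alpha, beta and gamma forms give a neuron its surface identity, and the non-clustered delta forms act in axon growth and synapse formation. Neurexins are presynaptic receptors whose postsynaptic ligands include the neuroligins and the leucine-rich repeat proteins of the Lrrtm family, while the Amigo proteins are leucine-rich repeat adhesion proteins of neurites. AgRP neurons of the arcuate nucleus (ARC) drive feeding and POMC neurons of the same nucleus restrain it. Both carry receptors for leptin, the hormone of the fat tissue that signals energy stores.

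The mice were male, and those that gave AgRP and POMC neurons carried the NuTRAP allele, which after Cre recombination labels ribosomes with GFP on the protein L10a and the nuclear membrane with mCherry. Cre came from the Agrp or the Pomc locus (AgRP-IRES-Cre or POMC-IRES-Cre), so each profile is that of cells with a history of the Cre rather than of current peptide expression. Mice were fed freely or fasted overnight and given vehicle, or were fasted and given leptin. For the AgRP line the study's methods give an age of 6 to 11 weeks, a fast of 18 to 20 hours, leptin at 5 mg/kg and tissue taken 3 hours after the injection, which were not found for the POMC line in the sources used here. An RNA sample pooled 4 ARCs. Ribosome-bound RNA (TRAP) was counted in 3 fed, 4 fasted and 4 leptin-treated AgRP samples, with the number 2 missing among the fed samples, and in 2 POMC samples per state. Open chromatin (ATAC-seq) was counted in sorted AgRP nuclei, 2 samples per state, and in a second table holding 2 GFP-positive samples (AgRP+) and 2 GFP-negative samples (AgRP-) of the ARC. CTCF binding was mapped by CUT&RUN in 1 AgRP sample and in cerebellar nuclei. The AgRP RNA libraries held 25581041 to 54511107 counts, the POMC libraries 30704075 to 53217053. The ATAC libraries of the 3 states held between 8263234 and 17190963 counts over 123721 peaks, the fewest in a fed sample, and the sorted ones between 8685497 and 11177208 over 67472 peaks.

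The neuron lines separated by their markers. The summed level of 7 AgRP neuron markers (Agrp, Npy, Corin, Otp, Ghsr, Acvr1c and Lepr) was 1725 to 6660 CPM (counts scaled to a common library size) in the AgRP libraries and 155 to 236 in the POMC libraries. The sum of 5 POMC neuron markers (Pomc, Cartpt, Prdm12, Tbx19 and Nkx2-1) ran from 1592 to 2960 in POMC libraries and from 63.9 to 105 in AgRP libraries. All 7 AgRP markers were called higher and all 5 POMC markers lower in AgRP than in POMC neurons, with Agrp at means of 1039 and 15.5 CPM and Pomc at 30.7 and 1501. RNA of other cells was present too. Summed astrocyte markers ran from 2857 to 26840 CPM in AgRP and from 5953 to 28080 in POMC libraries, and over all libraries the oligodendrocyte sum was 454 to 998, the precursor sum 25.3 to 70.8, the microglial sum 15.7 to 52.1, the tanycyte and ependymal sum 52.4 to 143, the endothelial sum 74.6 to 165, the fibroblast and mural sum 54.7 to 95.03 and the pars tuberalis sum 4.65 to 20.6. The astrocyte sum differed between libraries mainly through 1 gene. Slc1a2, the glial glutamate transporter and the most abundant of the astrocyte markers, stood at 20200 to 25900 CPM in the 3 AgRP libraries numbered 4 against 2380 to 3850 in the other 8. In the 3 POMC libraries numbered 2 it stood at 23300 to 27000, against 5220 to 6200 in the other 3. The other 6 astrocyte markers summed to 897 to 971 CPM in the 3 high AgRP libraries and 471 to 687 in the other 8, and to 1100 to 1230 and 681 to 780 in POMC libraries, a smaller gap. The oligodendrocyte and precursor sums were also apart in both lines. In AgRP libraries they were 753.5 to 833 and 44.1 to 44.7 in the high ones, against 482 to 749 and 25.3 to 39. In POMC libraries they were 785.5 to 998 and 58.2 to 70.8, against 454 to 552 and 39.6 to 46.2. The tanycyte and ependymal sum was apart in AgRP libraries only, and the microglial and the fibroblast and mural sums in POMC libraries only. Endothelial and pars tuberalis sums overlapped. These 6 libraries were kept, and results that rest on them are given with and without them. Of 65 members, 9 were on average higher in those libraries than in the rest of their line by a log2 ratio over 0.5 in both lines (13.8%, beside 9.38% of all genes): Cdh12, Cdh19, Pcdh19, Pcdh10, Pcdh15, Cdh4, Pcdhb15, Pcdhb16 and Pcdhb19. Cdh12 stood higher by 1.50 (log2) in AgRP and 1.66 in POMC libraries and Cdh4 by 0.72 and 0.50. The part of RNA of astrocytes and other cells in these levels was not tested.

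Regulatory sequences at which the members' open chromatin differed are shown first, as 300 bases of GRCm38.p6 each, at the middle of the peak except for Amigo2, 5′ to 3′ on the strand of the gene. The region upstream of Pcdh20 was far more open in AgRP+ than in AgRP- nuclei and lost openness with fasting. It lies at chr14:88472229-88472528 (minus strand), in no annotated gene, with its centre 982 bases upstream of the nearest transcript start, and 33% of its bases are G or C.
Pcdh20 upstream peak: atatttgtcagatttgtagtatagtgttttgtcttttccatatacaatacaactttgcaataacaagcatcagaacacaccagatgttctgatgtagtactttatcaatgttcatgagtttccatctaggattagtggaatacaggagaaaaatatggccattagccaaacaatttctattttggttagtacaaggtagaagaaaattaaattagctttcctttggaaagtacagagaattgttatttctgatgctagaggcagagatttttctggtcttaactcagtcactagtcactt
Among members' peaks of at least 300 bases, those that opened most with fasting lie in the genes of Pcdh9 (chr14:93199782-93200081, minus strand) and Lrrtm4 (chr6:80619676-80619975, plus strand), both outside exons. Capitals mark matches to TGANTCA, the letters bound by the AP-1 (Fos and Jun) factors, at base 67 in Pcdh9 and at bases 13 and 89 in Lrrtm4.
Pcdh9 peak opened by fasting: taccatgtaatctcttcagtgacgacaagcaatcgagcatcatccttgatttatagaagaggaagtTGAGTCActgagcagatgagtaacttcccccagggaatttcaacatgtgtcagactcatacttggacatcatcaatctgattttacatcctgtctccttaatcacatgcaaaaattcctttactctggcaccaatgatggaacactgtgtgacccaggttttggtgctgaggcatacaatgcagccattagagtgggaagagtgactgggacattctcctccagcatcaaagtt
Lrrtm4 peak opened by fasting: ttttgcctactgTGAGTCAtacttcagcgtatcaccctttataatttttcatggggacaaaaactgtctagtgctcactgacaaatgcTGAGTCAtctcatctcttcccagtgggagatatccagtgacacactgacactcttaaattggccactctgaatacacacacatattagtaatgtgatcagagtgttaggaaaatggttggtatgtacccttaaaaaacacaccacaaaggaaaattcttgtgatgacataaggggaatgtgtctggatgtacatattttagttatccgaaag
A second Lrrtm4 region, at chr6:80548641-80548940 (plus strand), was the one that opened most with leptin, and it holds no match to the letters searched.
Lrrtm4 peak opened by leptin: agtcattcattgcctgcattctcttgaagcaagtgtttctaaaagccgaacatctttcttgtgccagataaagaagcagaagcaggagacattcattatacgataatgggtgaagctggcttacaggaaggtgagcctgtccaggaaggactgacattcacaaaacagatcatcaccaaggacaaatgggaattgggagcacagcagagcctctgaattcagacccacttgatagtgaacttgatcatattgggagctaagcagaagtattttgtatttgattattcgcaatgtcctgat
Amigo2 RNA fell with leptin, and its promoter was less open in AgRP+ than in AgRP- nuclei. The bases just before its start, chr15:97247288-97247587 (minus strand), are 84.7% G and C, lie within the gene of Pced1b, and hold no match.
Amigo2 promoter: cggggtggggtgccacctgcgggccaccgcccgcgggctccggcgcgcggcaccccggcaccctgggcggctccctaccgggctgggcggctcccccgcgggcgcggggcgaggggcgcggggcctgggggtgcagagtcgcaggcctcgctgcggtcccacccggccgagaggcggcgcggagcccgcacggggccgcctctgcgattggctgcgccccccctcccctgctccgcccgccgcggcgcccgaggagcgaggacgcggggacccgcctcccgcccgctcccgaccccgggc

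Levels within a line were compared per kilobase of exon length as given in the count table, as the mean over fed libraries. Nlgn2, the neuroligin of inhibitory synapses, was the most abundant in both lines among the members whose table length was close to that of the annotation, at 79.4 CPM per kb in AgRP and 91.7 in POMC neurons. Pcdh20 followed in AgRP neurons at 64.2, above Nrxn2 at 49.4, Pcdh9 at 48.1 and Pcdh17 at 47.0. In POMC neurons Pcdh20 was at 13.95, well below Nrxn2 at 60.9 and Pcdh17 at 50.6. Cdh2 (N-cadherin), the main type I cadherin of synapses, was at 29.3 in AgRP and 32.7 in POMC neurons, and Cdh18 led the type II cadherins at 29.7 and 35.1, both counted over less than the annotated length. The 21 beta protocadherins were low, with means over all libraries of a line from 0.989 to 19.2 CPM in AgRP neurons. Their coding sequences are closely alike, so that single-gene values are uncertain. The alpha and gamma clusters came as few rows whose lengths differ from the annotation (Pcdhga12, 55922 bases in the table and 6664 annotated), and such rows may hold reads of several isoforms. Nlgn3 was counted over only 118 of 9271 annotated bases, and its values, 0.572 to 1.15 CPM in AgRP neurons, say little of the gene. Of the members, 9 had a mean under 1 CPM and were not tested between the lines: Cdh1, Cdh3, Cdh10, Cdh16, Cdh17, Cdh26, Nlgn3, Pcdh12 and a second row for Pcdha11.

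Between the lines, 15 members were called lower and 4 higher in AgRP than in POMC neurons, with the largest decreases for Cdh13, Pcdh11x and Pcdh8 and the largest increase for Pcdh20. In edgeR's quasi-likelihood test over all 17 libraries, calls required both an FDR (the p-value adjusted by Benjamini-Hochberg across every gene tested) below 0.05 and a log2 fold change beyond 0.5 in either direction. Of 65 members tested, 15 were called lower in AgRP neurons (23.1%, where 6.45% of all 13435 genes tested were) and 4 were called higher (6.15%, against 6.51% of all genes). The number called higher was smaller with some libraries left out, and its range stands in the last section. The sign was negative for 52 of 65 members, and their median log2 fold change was -0.219, beside -0.0177 over all genes. This balance of signs rested on the 6 libraries high in Slc1a2: without them 34 members were negative and 31 positive, with a median of -0.0564 beside 0.00177, while 16 were called lower (8.23% of all genes) and 6 higher (7.64%). The 2 groups did not overlap in any library for 13 of the 65 members, beside 7% of all genes tested. With scaling by library size alone 3 members were called higher and 13 lower, where the split over all genes went from 875 higher and 866 lower to 1230 and 655. With the replicate number as a block the counts were 5 higher and 13 lower (all genes 1065 and 1534, from 875 and 866), where Pcdhb12 (0.54) was gained and Cdh7 (-0.48) and Pcdh18 (-0.38) were lost. That block joined AgRP and POMC libraries that share only a number and come from different Cre lines. Of those numbered 2, the POMC libraries are high in Slc1a2 and the AgRP libraries are not, so this fit is no paired check. In TRAP of pooled tissue, fewer labelled cells and less RNA per cell cannot be told apart.

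**Figure D1:**
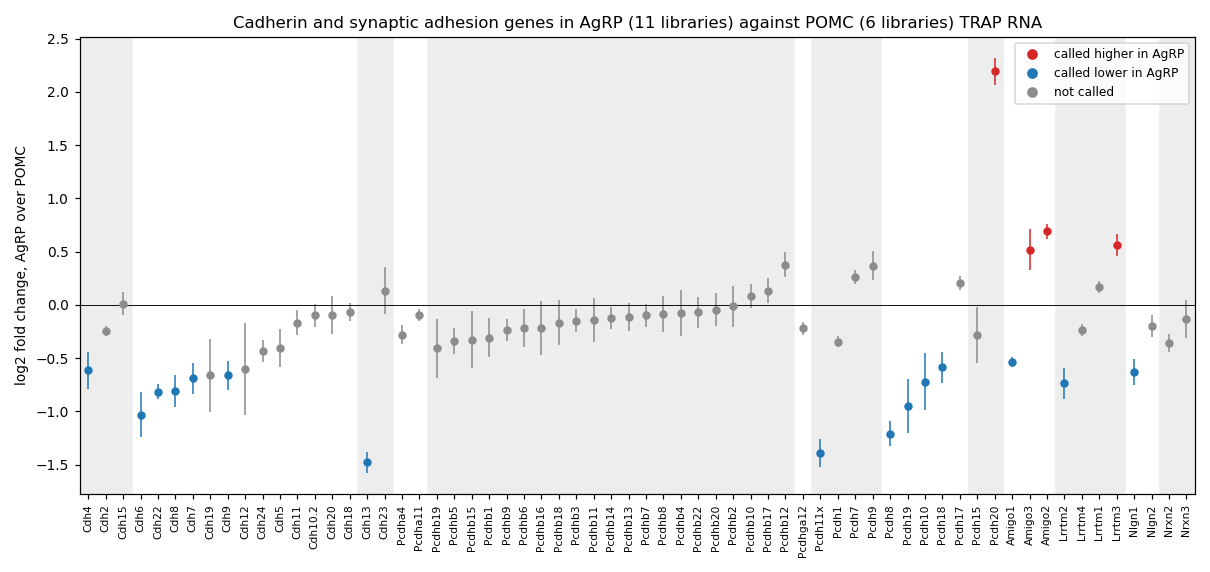
Log2 fold change of 64 of the 65 tested members in AgRP over POMC neurons, with the standard error as bars, grouped by subfamily (alternate shading: type I, type II and other cadherins, alpha, beta, gamma, delta1, delta2 and other protocadherins, Amigo, Lrrtm, Nlgn, Nrxn). Red points were called higher and blue points lower in AgRP neurons; Pcdh20 stands at 2.19 and Cdh13 at -1.48, while none of the 21 beta protocadherins was called.

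Pcdh20 encodes a non-clustered protocadherin. Its level ran from 183 to 524 CPM in the 11 AgRP libraries (median 369) and from 63.5 to 78.0 in the 6 POMC libraries (median 72.8). Every AgRP library was above every POMC library, and the log2 fold change was 2.19 ± 0.13 (SE, FDR 2.99e-08, edgeR). It was 2.20 among fed, 2.67 among fasted and 1.70 among leptin-treated samples. Without the 6 libraries high in Slc1a2 it was 2.24, and within those 6 alone it was 2.00.

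Amigo2, an adhesion protein of neuronal dendrites and axons, was also more abundant in AgRP neurons. Levels ran from 102 to 210 CPM (median 176) against 90.9 to 110 (median 103), a log2 difference of 0.69 ± 0.07 (SE, FDR 5.68e-06). The lowest AgRP value lay within the POMC range. The log2 fold change was 0.87 among fed and 0.97 among fasted samples, both called, and 0.24 among leptin-treated samples (FDR 0.192), where the AgRP level had fallen. Lrrtm3, a postsynaptic ligand of neurexins, was higher by 0.56 ± 0.11 (59.1 to 85.9 CPM against 37.6 to 63.7, FDR 0.00106). It was higher by 0.86 without the 6 libraries high in Slc1a2 and stood at 0.31 (FDR 0.114) within those 6 alone. Amigo3 was called higher by 0.52 ± 0.19 (FDR 0.0485), but its level was near 1 CPM in both lines (1.11 to 2.93 against 0.880 to 1.59) and its sign turned to -0.16 among the fed libraries alone.

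The members lower in AgRP neurons came from several families. Cdh13 (T-cadherin), a cadherin anchored to the membrane by a lipid, had 60.8 to 89.3 CPM in AgRP (median 78.6) and 167 to 280 in POMC libraries (median 210). No library overlapped, and the log2 fold change was -1.48 ± 0.10 (FDR 1.14e-07). Pcdh11x, an X-linked delta1 protocadherin, had 33.4 to 70.1 CPM (median 50.2) against 113 to 160 (median 144). It was lower by a log2 fold change of -1.39 ± 0.13 (FDR 2.65e-06), again without overlap. Pcdh8 (arcadlin), an activity-regulated delta2 protocadherin of synapses, had 24.9 to 45.2 CPM against 73.0 to 101 and differed by -1.21 ± 0.11 (FDR 2.74e-06). These 3 genes were called in each of the 3 states, compared within the fit over all 17 libraries.

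Of the 5 delta2 protocadherins, 4 were called lower, where 866 of all 13435 genes were. With Pcdh8 these were Pcdh19 (-0.95 ± 0.25), Pcdh10 (-0.72 ± 0.27) and Pcdh18 (-0.59 ± 0.14). Pcdh19 is the gene of a female-limited epilepsy. It had 108 to 281 CPM in AgRP and 240 to 433 in POMC libraries, and the 3 AgRP libraries that reach into the POMC range are those high in Slc1a2. Within the 6 libraries high in Slc1a2 alone, Pcdh10 differed by -0.43 (FDR 0.0309) and was under the size threshold. Its FDR in the fit over all libraries was 0.0477, and it rose above 0.05 when single libraries were left out (-0.50, FDR 0.200, without POMC leptin replicate 2). Pcdh18 was not called without those 6 libraries (-0.41, FDR 0.103). The remaining member of the group, Pcdh17, was at 0.20 and not called.

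Of 13 type II cadherins tested, 5 were called lower, beside 866 of all 13435 genes. All 13 had a negative log2 fold change over the 17 libraries. Without the 6 high in Slc1a2 there were 10 negative and 3 positive (Cdh20 0.47, FDR 0.00518, Cdh11 0.08 and a second row for Cdh10 0.01). In that fit 6 were called lower, beside 1105 of all 13431 genes. These cadherins mark neuron classes and sort their axons and synapses. Cdh6 differed by -1.03 ± 0.21 (21.3 to 56.0 CPM in AgRP against 57.5 to 93.7 in POMC libraries, FDR 0.00206). Cdh22 had 55.4 to 71.7 CPM against 102 to 127 and differed by -0.81 ± 0.07. Cdh8 had 24.7 to 45.8 against 48.4 to 71.2 and differed by -0.81 ± 0.15. None of these 3 overlapped between the lines. Cdh7 (-0.69 ± 0.14) and Cdh9 (-0.66 ± 0.13) were lower at under 30 CPM in both lines. Among the type I cadherins Cdh4 (R-cadherin) was called at -0.61 ± 0.17, but within the 6 libraries high in Slc1a2 alone it differed by -0.33, and with a term for those libraries by -0.49. Cdh2 was at -0.25 and not called.

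Among the synaptic organizers, Lrrtm2 was lower in AgRP neurons with a log2 fold change of -0.74 ± 0.14 (76.5 to 141 against 154 to 256 CPM, FDR 0.00145) and so was Nlgn1, the neuroligin of excitatory synapses, with -0.63 ± 0.12 (66.1 to 119 against 122.9 to 176, FDR 0.00148). Amigo1, which associates with a potassium channel, was lower with -0.54 ± 0.05 (112 to 155 against 174 to 197, FDR 1.48e-06). None of the 3 overlapped between the lines. Nrxn2 stood at -0.36 (FDR 0.00521), past the FDR but under the size threshold, and Nrxn3 at -0.13 (FDR 0.587). Nlgn2 stood at -0.20 (FDR 0.159). Lrrtm1 was at 0.17 and Lrrtm4 between 28.2 and 43.7 CPM over both lines, and neither was called.

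Of the 19 calls, 17 were also made without the 6 libraries high in Slc1a2 (not Pcdh18 and Amigo3), and 12 within those 6 alone (not Cdh4, Nlgn1, Pcdh10, Amigo1, Amigo3, Lrrtm3 and Cdh9). All 19 kept their sign in both. Without the 6 libraries 5 further members were called, Pcdh9 (0.67), Pcdhb12 (0.59) and Cdh23 (0.58) higher and Pcdhb1 (-0.62) and Cdh5 (-0.58) lower. The beta protocadherins had 18 of 21 negative signs over all libraries and 4 of 21 without the 6. Taken state by state from the same model, 2 members were called higher and 4 lower among fed samples (all genes 1.70% and 1.51%), 3 and 11 among fasted (8% and 5.33%), and 1 and 8 among leptin-treated samples (6.41% and 4.73%).

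Partners of these proteins were read from lists of related genes, with 6.51% of all genes called higher and 6.45% lower in this comparison. Of 10 catenins and linkers tested, only vinculin (Vcl), which ties adhesion sites to actin, was called, higher in AgRP neurons at 0.50 (FDR 0.00325). Of 16 other genes of the cadherin superfamily, 3 were higher and 4 lower. Dchs1 and Fat4, large cadherins that bind each other across cells, were higher in AgRP neurons by 1.20 and 0.59, whereas Fat1 (-1.13), Dsg2 (-0.67), Celsr2 (-0.65) and Ret (-0.56) were lower. Of 17 neurexin ligands and organizers 1 was higher, the glypican Gpc4 (1.61, 147 against 48.2 CPM as means), and 5 were lower: Mdga2, Adgrl3, Hspg2, Cbln1 and C1ql2. Of 55 other synaptic adhesion genes 2 were higher (Flrt3 at 1.67 and Sdk2 at 0.96) and 19 were lower. The latter held all 4 teneurins, postsynaptic and axonal adhesion proteins that pair with latrophilins, from Tenm1 at -1.62 to Tenm3 at -0.82. Of 19 synaptic scaffolds tested, Cask (-0.90), which binds the neurexin tail, and Shank2 (-0.51) were lower. The list medians were -0.0665 for catenins, -0.245 for the cadherin superfamily, -0.150 for neurexin ligands, -0.420 for other adhesion genes and -0.307 for scaffolds, beside -0.0177 over all genes. Without the 6 libraries high in Slc1a2 the counts higher and lower were 2 and 0 for catenins, 2 and 4 for the cadherin superfamily, 4 and 4 for neurexin ligands (median 0.00191), 6 and 17 for other adhesion genes (median -0.290) and 0 and 2 for scaffolds (median -0.0718). Of markers of other cells, 1 of 7 astrocyte genes tested (Slc1a3, -0.65), 2 of 3 precursor genes (Pdgfra and Cspg4), 2 of 5 fibroblast and mural genes (Dcn and Col1a1) and 1 of 3 pars tuberalis genes (Cga) were lower in AgRP libraries over all 17 libraries. None of the oligodendrocyte, microglial, tanycyte and ependymal or endothelial genes was called there. Without the 6 libraries, the genes lower and higher were 2 and 1 for astrocytes, 2 and 1 for precursor cells, 0 and 1 for oligodendrocytes, 1 and 0 for microglia, 2 and 0 for tanycytes and ependymal cells, 1 and 0 for endothelial cells, 2 and 0 for fibroblasts and mural cells and 1 and 0 for the pars tuberalis. The part of these cells in the adhesion lists was not tested.

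Fasting moved no member past both thresholds in AgRP neurons. Of 65 members tested, 0 were called higher and 0 lower by edgeR, where 2.82% of all 13401 genes were called higher and 1.07% lower. DESeq2 called none either, and with the replicate number as a block the members' calls were also 0 while those of all genes went from 378 to 590 higher and from 143 to 340 lower. Of the members, 9 had an unadjusted p under 0.05 (13.8%, beside 19.3% of all genes), 4 of them higher and 5 lower. The median log2 fold change was -0.113 beside 0.0175 over all genes, and 44 of 65 members had a negative sign. Median sums of other-cell markers were also lower in fasted libraries, except for the pars tuberalis (5.57 CPM fed, 6.90 fasted), with overlapping ranges. The microglial median went from 38.2 to 16.6 CPM, the oligodendrocyte one from 749 to 535 and the precursor one from 39 to 28.4. The part of these cells in the members' signs was not tested. Lrrtm1, a presynaptic-inducing ligand of neurexins, came nearest to a call. It stood at 44.9, 49.6 and 50.2 CPM in the fed and at 67.5, 71.7, 69.0 and 58.4 in the fasted libraries. All fasted values were above all fed values, with a log2 fold change of 0.48 ± 0.09 (FDR 0.0132), short of the size threshold. It was 0.51 without fasted replicate 4 and 0.54 without the 3 AgRP libraries high in Slc1a2, and was then called. Cdh18 also passed the FDR alone (0.42, FDR 0.0386). Its levels were 101, 106 and 89.7 CPM fed and 127, 137, 146 and 117 fasted, without overlap. Pcdh17, a delta2 protocadherin, also had every fasted library (681, 609, 709 and 626 CPM) above every fed one (490, 512 and 554), but at 0.35 its FDR was 0.0844. These 3 were the members with every fasted library above every fed one (4.62%, beside 9.80% of all genes). For 6 members every fasted library was below every fed one (9.23%, beside 7.51%). They were Pcdh7 (fed 342 to 351, fasted 257 to 302 CPM), Amigo1 (139.9 to 155 and 121 to 131), Cdh2 (136 to 149.8 and 116 to 128), Lrrtm4 (36.3 to 39.3 and 28.2 to 33.5), Pcdhga12 (406 to 458 and 340.1 to 395) and Pcdhb3 (6.61 to 7.83 and 5.38 to 6.59), and none of the 6 passed the FDR (0.0781 to 0.377).

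After leptin 2 members were lower in AgRP neurons, Pcdh20 and Amigo2, than in fasted mice given vehicle. Of 65 members tested, 0 were called higher and 2 lower (3.08%), where 1.19% of all genes were called higher and 0.634% lower. The comparison shares its 4 fasted libraries with that of fasting. Pcdh20 stood at 481, 412, 524 and 385 CPM in the fasted libraries and at 249, 251, 254 and 183 in the leptin-treated ones. No leptin-treated library reached a fasted one, and the log2 fold change was -0.95 ± 0.16 (FDR 0.0114). The fed values were 369, 400 and 239, each below the fasted value of the same replicate number (481, 524 and 385). The last of each came from a library high in Slc1a2. Fasting against fed stood at 0.43 (FDR 0.208), and with the replicate number as a block Pcdh20 was not called either. With scaling by library size alone the FDR of the leptin effect on Pcdh20 was 0.0545.

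Amigo2 stood at 187, 202, 210 and 173 CPM in the fasted and at 124, 121, 125 and 102 in the leptin-treated libraries. All leptin-treated values were below all fasted values, with a log2 fold change of -0.71 ± 0.09 (FDR 0.0014). Fed levels were 182, 208 and 176 CPM, within the fasted range (0.04, FDR 0.876). Lrrtm1 stood at 46.5, 55.7, 49.8 and 46.8 CPM after leptin, a log2 fold change of -0.42 ± 0.08 (FDR 0.0239) under the size threshold. Lrrtm3 was at -0.29 (FDR 0.0762), with no overlap between fasted and leptin-treated libraries. Cdh15 was also lower after leptin without overlap (4.96 to 5.48 CPM fasted, 3.33 to 4.36 after leptin). Pcdh1 was higher after leptin without overlap (62.7 to 70.4 fasted, 71.5 to 74.2 after leptin), and neither was called. In all, 6 of the 65 members tested did not overlap between fasted and leptin-treated libraries. The share over all genes was not counted, so this lack of overlap says nothing of the members as a group.

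**Figure D2:**
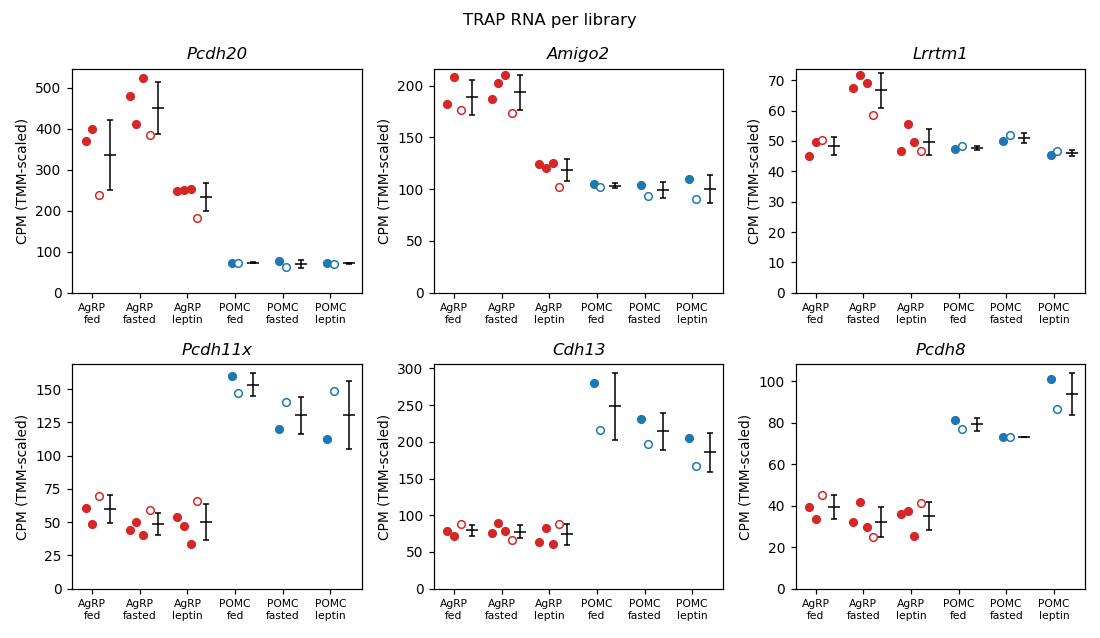
TRAP RNA level (CPM, scaled by TMM over all 17 libraries, axis from 0) of 6 members in every library, by line and state; open circles are the libraries high in Slc1a2, and the bar beside each group is the mean ± SD. Pcdh20 and Amigo2 are lower in the leptin-treated than in the fasted AgRP libraries, Lrrtm1 is higher in fasted than in fed AgRP libraries, and Pcdh11x, Cdh13 and Pcdh8 lie lower in all AgRP than in all POMC libraries.

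Calls in the partner lists in AgRP neurons stand beside those over all 13401 genes tested. These were 378 higher and 143 lower with fasting, and 160 and 85 with leptin. With fasting, Vcl was higher by 0.85 (FDR 0.00155), Fat4 by 0.61 and Dchs1 by 0.74, and with leptin Vcl was lower with a log2 fold change of -0.51 (FDR 0.0161), while the scaffold Magi3 was higher by 0.86 (FDR 6.52e-04). The replicate numbers of the AgRP libraries were taken to pair the samples. With the replicate number as a block, the calls on the members did not change, but 3 further genes of the cadherin superfamily (Fat1, Fat3 and Cdhr1) and Mdga1 were called lower with fasting. Of the other adhesion genes, Ntng1 was then called higher and 4 were called lower, and with leptin Celsr1 and Nxph3 were called higher. Likewise 6 of the 7 AgRP neuron markers were called higher with fasting with the block and 0 without it. Over all genes the block gave 590 calls higher and 340 lower with fasting, and 242 and 148 with leptin. Whether the lists differ from all genes was not tested.

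In POMC neurons no member was called between states. Of 67 members tested, 0 were called with fasting and 0 with leptin by edgeR, and DESeq2 called none, where edgeR called 0% of 13412 genes in either direction. An unadjusted p under 0.05 was seen for 3 members with fasting (4.48%, beside 2.10% of all genes) and 4 with leptin (5.97%, beside 1.13%). Pcdh20 stood at 73.7 and 72.4 CPM fed, 78.0 and 63.5 fasted, and 73.1 and 70.8 after leptin. Amigo2 stood at 105 and 102, 104 and 93.6, and 110 and 90.9. The samples of each pair overlap or lie close together across states. With 2 samples per state the median SE of the log2 fold change was 0.257 over the members, beside 0.171 (fasting) and 0.158 (leptin) in AgRP neurons. Whether fasting acts differently in the 2 lines was tested as an interaction, in which 0 members were called by edgeR, where 0.141% of all genes were called higher and 0.0223% lower. DESeq2 called none and 5 members had an unadjusted p under 0.05 (7.69%, beside 8.96% of all genes). With the replicate block 1 member was called, Cdh24, a type II cadherin, at -0.90 (FDR 0.00327), beside -0.79 (FDR 0.320) without it. Its levels were 18.4, 18.8 and 18.05 CPM in fed and 14.9, 19.7, 14.8 and 10.4 in fasted AgRP libraries, and 18.1 and 17.1 in fed and 24.1 and 25.5 in fasted POMC libraries. Over all genes the block gave 582 calls higher and 254 lower in this test.

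Open chromatin in the members' genes was taken as any ATAC peak from 1 kb before the gene to its end. Between fed and fasted AgRP nuclei, 600 such peaks in the state table passed the filter of 1 CPM, of 753 in 49 genes. Of these 103 opened with fasting (17.2%, beside 18.1% of all 102237 peaks tested) and 57 closed (9.50%, beside 8.88%). With 1 library left out 56 to 81 opened (11.5% to 14.2% of all peaks) and 21 to 65 closed (4.74% to 8.20%). The counts moved most without fed replicate 1 (65 opened, 21 closed), fed replicate 2 (56 opened) and fasted replicate 2 (25 closed). Nrxn3 held 94 of the tested peaks, with 26 opened and 9 closed, and Cdh13 held 37, with 10 opened and 3 closed. The peak of Pcdh9 whose sequence is shown above stood at 1.01 and 1.46 CPM in fed and 17.5 and 11.6 in fasted nuclei (log2 3.48 ± 0.43, FDR 2.76e-05). That of Lrrtm4 stood at 0.630 and 1.02 fed and 8.28 and 8.71 fasted (3.26 ± 0.47, FDR 8.35e-05). Fed and fasted samples were far apart at both. The largest log2 increase was in Cdh23 (4.15), from 0.126 and 0.0731 to 1.68 and 1.89 CPM, and the largest decrease in Pcdh7 (-2.61), from 4.28 and 2.78 to 0.905 and 0.189.

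The letters of the AP-1 site, TGANTCA, which read the same on both strands, stood in the middle 300 bases of 77 of the 103 members' peaks that opened with fasting (74.8%, beside 71.1% of all peaks that opened). They stood in 29.8% of members' peaks not called (25.8% of all) and in 10.5% of those that closed (5.41% of all). Of all peaks counted across the states, 31.2% held them.

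**Figure D3:**
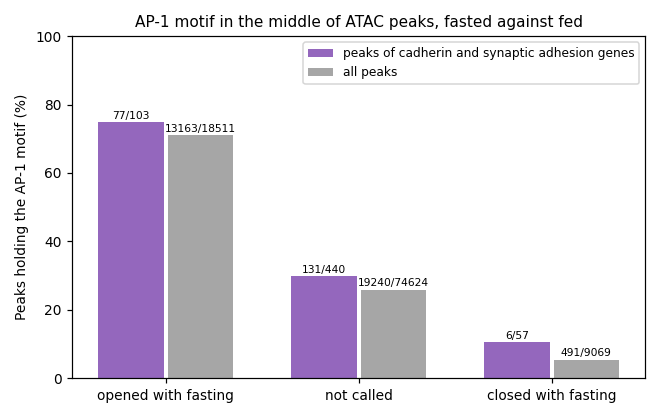
Share of ATAC peaks with the letters TGANTCA in their middle 300 bases, for peaks of the members (purple) and all peaks (grey) that opened, were not called or closed in fasted against fed AgRP nuclei; the counts stand above the bars, which start at 0. The share is highest in opened peaks, 74.8% and 71.1%.

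At the members' promoters (peaks within 1 kb of an annotated transcript start), fasting opened 2 of 81 peaks tested (5.18% of all promoter peaks opened) and closed 5 (4.31% of all closed). The number closed depended on single libraries, and its range with a library left out stands in the last section. Opened were a promoter of Cdh23, a cadherin of hair cell tip links (0.881 and 1.02 CPM fed, 4.07 and 5.11 fasted, log2 2.23, FDR 0.00174), and one of Nrxn2 (4.41 and 7.46 fed, 13.2 and 16.9 fasted, 1.27). The groups were apart at both. Among the closed were promoters of Pcdh15 (5.67 and 8.92 fed, 2.13 and 2.59 fasted, -1.68), Nrxn3 (-1.22), Pcdh20 (-0.94) and Lrrtm4 (-0.69). Several of these genes have more than one start, and the peak named need not serve the main transcript.

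Leptin opened 17 of the 600 members' peaks against fasted nuclei (2.83%, beside 2.41% of all) and closed 4 (0.667%, beside 0.669%). These counts were smaller with most libraries left out: 4 opened without fasted replicate 1, 4 without leptin replicate 1 and 5 without leptin replicate 2 (0.594%, 0.702% and 0.851% of all peaks), with 0 closed in each, and 13 opened and 5 closed without fasted replicate 2 (1.73% and 1.43%). The Lrrtm4 peak at chr6:80548641-80548941 went from 0.388 and 0.379 CPM to 3.38 and 2.83 (2.98 ± 0.57, FDR 0.00445). A further Lrrtm4 peak, at chr6:80406357-80407012, went from 1.55 and 2.08 to 9.37 and 10.0 (2.41 ± 0.33, FDR 3.52e-04), with a wide gap between the states. Pcdh15 held 3 peaks that opened. Of members' promoter peaks 0 of 81 were called in either direction by edgeR (0.52% and 0.155% of all promoter peaks), and 3 had an unadjusted p under 0.05. The letters of a STAT site, TTCNNNGAA, stood in 4 of the 17 peaks that opened (23.5%) and in 39.2% of all peaks that opened with leptin. They stood in 14.9% of members' peaks not called (11.7% of all) and in 0 of the 4 that closed (8.77% of all).

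Between sorted AgRP+ and AgRP- nuclei, 101 of 421 members' peaks were more open in AgRP+ nuclei (24.0%, beside 23.9% of all 66560 peaks) and 82 less open (19.5%, beside 15.6%). Without AgRP- replicate 1, 46 were less open (9.21% of all), 16 of them at promoters. At the promoters the balance differed: of 75 peaks, 4 were more open (5.33%, beside 5.16% of all promoter peaks) and 25 less open (33.3%, beside 14.1%). AgRP- nuclei hold every other cell of the ARC, glia included, so that the comparison is not with POMC neurons. With scaling by library size alone, which raises the median of all peaks from -0.000337 to 0.163, 29.2% of the members' peaks were more open (27.4% of all) and 14.5% less open (11.0% of all), and 15 of the 75 promoter peaks were less open (beside 7.82% of all promoter peaks).

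By log2 fold change, Pcdh20 had the promoter peak that opened most. The peak upstream of its start (chr14:88472153-88472604 in this table) stood at 12.4 and 14.8 CPM in AgRP+ and at 1.36 and 1.07 in AgRP- nuclei (log2 3.48 ± 0.38, FDR 6.84e-18). The peak over its start (chr14:88470741-88471316) did not separate them, with 16.3 and 14.8 against 12.9 and 14.6 (0.17, FDR 0.518). Across states the upstream peak (chr14:88472118-88472576) stood at 26.7 and 14.2 CPM in fed, 12.7 and 7.64 in fasted and 5.28 and 4.70 in leptin-treated nuclei. Fed and fasted samples did not overlap, and the peak closed with fasting, at -0.94 ± 0.31 (FDR 0.0274), whereas its RNA was not lower in fasted neurons. Leptin against fasted stood at -1.03 ± 0.36 with an FDR of 0.139, and with the replicate block at -0.99 with an FDR of 0.0337, though the replicate numbers of these samples were not found to pair them. The lower fed value (14.2) was near the higher fasted one (12.7).

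**Figure D4:**
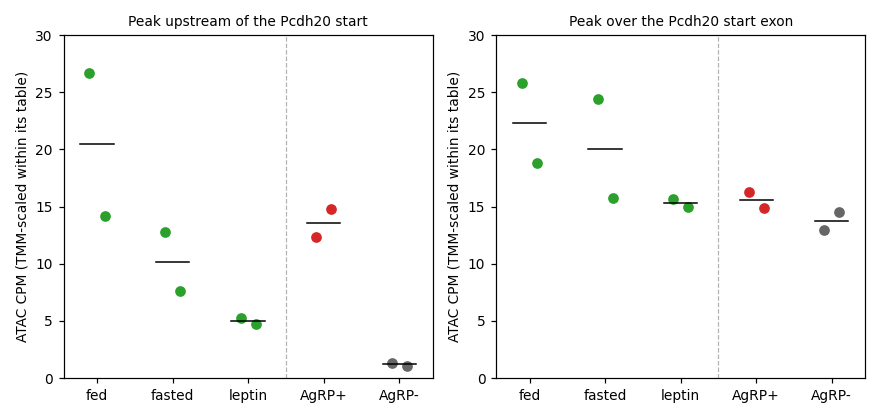
ATAC signal (CPM, scaled within its table, axis from 0) of the peak upstream of the Pcdh20 start and of the peak over the start exon, each sample as a point and the mean as a line; the dashed line parts the table of states from that of sorted nuclei. The upstream peak is at 12.4 and 14.8 in AgRP+ against 1.36 and 1.07 in AgRP- nuclei, while the start peak is alike in both.

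Other promoters more open in AgRP+ nuclei belonged to Nrxn3 (15.8 and 20.2 against 4.06 and 5.45 CPM, log2 1.92), Pcdh15 (1.60) and Pcdh17 (0.89). Pcdh15 had another promoter peak that was less open (-0.69). The largest decrease was at the promoter of Cdh8, a type II cadherin, with 5.96 and 5.17 CPM in AgRP+ and 38.1 and 33.7 in AgRP- nuclei (-2.69 ± 0.21, FDR 1.58e-35). That of Pcdh11x stood at 2.58 and 3.42 against 15.9 and 9.24 (-2.05 ± 0.30, FDR 2.96e-10), and that of Cdh7 at 10.4 and 10.3 against 32.4 and 27.0 (-1.52). The groups were apart at all 3. The promoter of Amigo2 was less open in AgRP+ nuclei (20.7 and 19.0 against 29.4 and 30.8, -0.60 ± 0.17, FDR 0.00168), although its RNA was higher in AgRP than in POMC neurons.

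RNA and promoters were then set side by side. All 15 members with lower RNA in AgRP than in POMC neurons had a promoter peak in the sorted table, 11 of them had one that was less open in AgRP+ nuclei (73.3%, beside 36.8% of the 701 genes with lower RNA and a promoter peak), and none had one that was more open (5.28% of the 701). Among 20 members with a promoter peak whose RNA was not called, 10 had one less open (beside 14.5% of 10359 such genes) and 3 one more open (beside 4.24%). Of the 4 with higher RNA, Pcdh20 had a more open and Amigo2 a less open promoter. The median log2 fold change of the strongest promoter peak was -0.609 for the lower, -0.477 for the uncalled and -0.200 for the 4 higher genes. The strongest peak is the one with the highest signal. In the shares above a gene counted if any of its promoter peaks was called, so genes with more peaks had more chances. The shares were not matched for the number of peaks. Nlgn1 and Pcdh8 counted as less open though their strongest peaks were not called (0.14, FDR 0.545, and -0.33, FDR 0.109, edgeR).

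**Figure D5:**
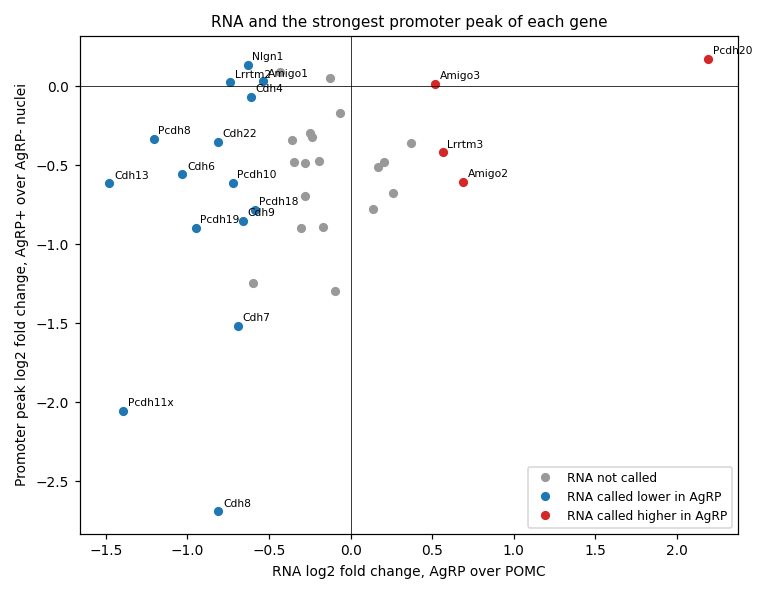
RNA log2 fold change (AgRP over POMC neurons, horizontal) and log2 fold change of the strongest promoter peak (AgRP+ over AgRP- nuclei, vertical) of the members shown with a promoter peak; colours give the RNA call. Of the 4 genes with higher RNA 2 lie above 0 on the vertical axis (Pcdh20 and Amigo3, 0.02) and 2 below, while the medians of the lower and uncalled genes are below 0, with Cdh8 (-2.69) and Pcdh11x (-2.05) lowest; for Pcdh20 the strongest peak is the one over its start (0.17), not the upstream one.

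CTCF, the insulator protein that sets the choice of clustered protocadherins by looping their promoters, was read as CUT&RUN peaks within 1 kb of a transcript start. With 1 sample per list no test was made, and the intervals are exact binomial 95% intervals that cover counting error only. In AgRP nuclei (a sample labelled 3K) 21 of 71 members had such a peak (29.6%, 19.3 to 41.6), beside 31.0% of 22320 genes. They held 6 of the 21 beta protocadherins (Pcdhb3, Pcdhb7, Pcdhb10, Pcdhb13, Pcdhb14 and Pcdhb16), Pcdh20, Pcdh8, Cdh13 and none of the 13 type II cadherins. In the cerebellar samples the share was 15.5% at 1K, 54.9% at 10K and 50K, and 50.7% in the sample labelled 100K, although the name of its list gives another number of nuclei (beside 11.9%, 44.9%, 45.8% and 45.8% of all genes), with 1, 16, 13 and 13 beta protocadherins. The number of nuclei and the number of peaks called (51182 in AgRP, 18612, 63854, 55326 and 54900 in cerebellum) differ between these lists, so that tissue and input cannot be told apart.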

How the data were processed

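TRAP RNA-seq (17 libraries), ATAC-seq of sorted nuclei (10) and CTCF CUT&RUN (5) were used; arcuate nucleus input RNA and IRF3 CUT&RUN were not analysed here. The deposited RNA values are raw counts per gene, made by the authors with HISAT2 and featureCounts on GRCm38 with an annotation changed to reduce overlapping transcripts, together with an exon length. The deposited ATAC values are raw counts per peak (Bowtie2, MACS2, bedtools, mm10). The deposited CTCF lists give a fold enrichment (ratio) per MACS2 peak. Versions and strandedness are not given in the sources used here; reads of overlapping antisense genes and of near-identical protocadherins may be shared. Deposited log2 CPM tables were not used.

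Counts were fitted with edgeR 4.0.16 (R 4.3.3; TMM, glmQLFit, glmQLFTest) by state within a line, or by line and state over all 17 libraries. Features with a mean CPM over 1 were tested, and calls needed an FDR below 0.05 with a log2 fold change beyond 0.5 either way. P-values measure the spread between pooled samples, taken as independent except where a block was used. DESeq2 1.42.0, RLE factors, library size alone, no CPM minimum, the replicate block, fed libraries only, each library left out, and fits without or only with libraries high in Slc1a2 (chosen after seeing the data) were alternatives. Overlaps used bedtools 2.31.1; scripts were tested on simulated data. Printed CPM are TMM-scaled over the 17 RNA libraries or within an ATAC table. The AgRP replicate numbers were taken to pair the samples, though the sources used here do not tie them to a litter, day or batch. Deviations from the group means of same-numbered libraries correlated at 0.537 to 0.814 in all 10 pairs (median 0.692). In the 30 pairs of unlike numbers the correlations ran from -0.645 to 0.641 (median -0.238). AgRP+ and AgRP- nuclei came from the same pooled samples. The sources used here do not tie their numbers to a pool (same-numbered samples, r 0.0988). Sequences were read from GRCm38.p6.

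The members and lists were chosen with earlier results of these data known. Named are all Amigo, Lrrtm, Nlgn and Nrxn genes, called members (at most 10 a direction), those called with the block, the most abundant per kilobase and the peaks that moved most; further genes were named after their values were seen. Results of 1 member are not reported singly here or drawn, though the counts include it.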

Additional observations from a re-analysis of the deposited data

Results flagged for a closer look

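In groups of 4 AgRP libraries, a value far from the other 3 (gap over range above Dixon's 95% value) was found in 8 of 94 cases (2 groups for each of 47 named genes, some named for their values), where chance alone gives about 1 in 20. The share was 10.8% over all members tested and 11.1% over all genes, and 6 of the 8 values came from the libraries numbered 4, so that the cases are not independent. In fasted replicate 4, high in Slc1a2, Cdh4 stood at 75.2 CPM (others 42.7 to 44.9) and Pcdh19 at 269 (113 to 139). In leptin replicate 4, also high in Slc1a2, Cdh4 stood at 72.8 (40.4 to 45.6), Pcdh10 at 455 (185 to 226) and Pcdha4 at 223 (178 to 179), and Pcdh20 was lowest at 183 (249 to 254). Cdh8 stood at 45.8 in fasted replicate 2 (26 to 28.4), and Amigo3 at 2.93 in fasted replicate 1 (1.42 to 1.62). The part of RNA of astrocytes and other cells in these values was not tested.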

How the results depend on the processing

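Of 297 alternative values of 29 counts and shares, 267 stayed within the limits set for each and 30 moved; of 568 for 23 single genes, 502 kept direction and call, 62 lost the call, 3 gained it and 1 reversed (Amigo3, -0.16 with fed libraries only). Members called higher with fasting in AgRP neurons were 1 without the 3 libraries high in Slc1a2 and 0 to 1 with 1 library left out. With leptin 1 was lower by library size alone. In AgRP against POMC neurons, 2 were higher with fed libraries only (143 over all genes, from 875), 2 within the 6 libraries high in Slc1a2 alone (492) and 2 to 4 with 1 library left out (2 without POMC fasted replicate 1); 4 were lower with fed libraries only, and 13 to 15 with 1 left out. Scaling by library size alone gave 1230 genes higher and 655 lower over all genes, and 3 and 13 members. With the replicate block, which joined libraries of both lines by number alone, all-gene calls between the lines were 1065 and 1534. In the interaction, blocked by number within each line, 1 member was lower. Leaving out 1 ATAC library gave 56 to 81 members' peaks opened and 21 to 65 closed with fasting (promoters closed 1 to 6), 4 to 13 opened and 0 to 5 closed with leptin, and 46 to 67 closed in AgRP+ nuclei (promoters 16 to 24); the lone sample of a group is then assumed to vary like the others. The ATAC replicate numbers of the states did not pair the samples (r 0.155, 0.165 and -0.00228); the block gave 28 opened, 11 closed (3.86% and 1.89% of all peaks) and 1 promoter closed (Pcdh20) with leptin. Library size alone gave 15 promoters closed in AgRP+ nuclei. CTCF shares with peaks above the median fold were 40.8% (10K), 31.0% (50K) and 35.2% (100K), beside 34.9%, 30.9% and 30.6% of all genes, and 22.5% (24.3%) in AgRP nuclei and 9.86% (6.81%) at 1K. The POMC samples have only 2 numbers, so pairing could not be settled; same-numbered libraries deviated together (r 0.726 to 0.770), those numbered 2 are the ones high in Slc1a2, and the block called 0 members there. Causes were not tested.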
